A study of Glycine max with 12 samples.

Results

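The glycinin genes of soybean (Glycine max, cultivar Williams 82) were followed through 12 transcript libraries, 7 of whole seeds and 5 of other organs. The family consists here of the 6 published loci Gy1 (Glyma03g32030), Gy2 (Glyma03g32020), Gy3 (Glyma19g34780), Gy4 (Glyma10g04280), Gy5 (Glyma13g18450) and Gy7 (Glyma19g34770). They were chosen by their published locus names, not by their levels, and are 6 of 66210 gene models in the count files. All 6 are also listed in both files of RPKM values.

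Glycinin is the legumin-type storage globulin of the soybean seed. Its subunits are made as precursors on the endoplasmic reticulum, moved to the protein storage vacuole and cleaved there into an acidic and a basic chain that stay joined. The stored protein is broken down after germination to feed the seedling. Gy1, Gy2 and Gy3 encode the closely related group I subunits, and Gy4 and Gy5 the group II subunits. Gy7 is a more divergent member. In the RefSeq gene table of the Glycine_max_v4.0 assembly all 6 symbols were found. In its order of protein-coding genes Gy2 and Gy1 are direct neighbours on chromosome 3, Gy7 and Gy3 are direct neighbours on chromosome 19, Gy4 lies on chromosome 10 and Gy5 on chromosome 13.

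Seeds were taken at the globular stage (0.8 to 1.1 mm long), heart stage (2 to 2.5 mm) and cotyledon stage (3 to 3.9 mm), then at early maturation with a length of 6 to 7 mm. Mid-maturation seeds measured 1.1 to 1.3 cm and weighed 150 to 250 mg fresh, late-maturation seeds measured 1.2 to 1.5 cm and weighed 230 to 350 mg, and dry seeds weighed about 200 mg. Leaves (young, trifoliate), roots without nodules and stem internodes came from a plant of 3 to 4 months. Floral buds were unopened, and whole seedlings of 7 to 10 cm were taken 6 days after imbibition began. All plants were of the same cultivar and grown in a greenhouse, and the labels name no mutation or treatment. Each stage or organ has 1 library, so nothing below could be compared with a spread between replicates, and p-values are not given. Whole seeds and organs are mixtures of cell types, so fewer cells of a type and less RNA per cell cannot be told apart.

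The 10 libraries with counts held 10.3 (stem) to 45.7 (globular) mega-counts. Counts are given as CPM, that is, counts divided by the library size in mega-counts after TMM scaling. Intervals in parentheses are exact 95% intervals that cover counting error only. The mid- and late-maturation libraries were deposited as RPKM, which corrects reads for gene length and sequencing depth, and the labels name a second sequencer model for them. They form a batch of their own, and between it and the count libraries stage and batch cannot be told apart. As a check of the labels, the seed lectin gene LE1 stood at 3875 CPM at early maturation and 170 CPM in dry seed, against 0 to 9 counts in leaf, root, stem and floral bud. LE1 had only 3 counts in heart-stage seed, so it does not set that library apart from floral bud. Of the seed regulators described below, the LEC1 homologs had 295 and 215 counts in heart-stage seed but 3 and 5 in dry seed. The ABI3 homologs had 461 and 306 counts in heart-stage seed, and 18 and 12 in floral bud. Gy1, Gy2 and Gy3 are known as close relatives, though their identity was not computed here. How reads matching several genes were counted is not given in the sources used here, so the division of reads among them carries an error of unknown size.

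Glycinin transcripts were scarce in young seeds and abundant at early maturation and in the dry seed. The 6 genes together held 457 counts at the globular stage, 6 at the heart stage, 23 at the cotyledon stage, 549432 at early maturation, 278096 in dry seed and 449 in the seedling. They held 1 count in leaf, 3 in root, 0 in stem and 2 in floral bud. The stem count of 0 allows up to 0.283 CPM by a limit of 3 counts, and 0.348 CPM by the exact upper limit. The family thus took 1.44% of all counts at early maturation (1.43 to 1.44%) and 1.29% in dry seed (1.29 to 1.30%). After TMM scaling the order was the other way, with 15575 CPM at early maturation and 21875 CPM in dry seed, so the direction of the family sum between these libraries depends on the scaling. In the other batch it took 17.2% of the sum of RPKM at mid maturation and 0.848% at late maturation.

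Gy1 had 237, 2 and 2 counts in globular, heart and cotyledon-stage seed. It then had 295740 counts at early maturation, 49993 in dry seed and 178 in the seedling. Leaf, root and stem had 0 counts of Gy1 and floral bud 1. By level the order of Gy1 was early maturation (8383 CPM), dry seed (3932.5), seedling (9.18) and globular seed (4.76), and the intervals of these 4 libraries did not overlap. The 6 remaining count libraries all lay at or under 2 counts and were not distinguishable at this depth.

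Gy2, its neighbour, had 120, 1 and 5 counts in the 3 young seed libraries, 153293 at early maturation, 195853 in dry seed and 69 in the seedling. Root and floral bud had 1 count each, and leaf and stem 0. The dry seed was therefore its highest count library, at 15406 CPM (15338 to 15474), ahead of early maturation at 4345 CPM (4324 to 4367). Plain CPM kept that order at 9104 and 4013 CPM. The TMM factor of the dry-seed library is 0.591, and every plain CPM of that library is lower than the level given here by this factor. Among all gene models of a library, Gy1 ranked 4 by counts at early maturation and 32 in dry seed, and Gy2 ranked 12 and 7.

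Gy4 had 77, 1 and 0 counts in the young seeds, 81672 at early maturation, 27464 in dry seed and 162 in the seedling. Leaf had 1 count and root, stem and floral bud 0. Gy4 stood at 2315 CPM at early maturation and at 2160 CPM in dry seed, the closest pair of levels of any member between these libraries with TMM or DESeq2 scaling. With plain CPM it stood at 2138 and 1277 CPM, and Gy3 and Gy7 were closer. Gy5 had 21, 2 and 0 counts in the young seeds, 18116 at early maturation (514 CPM), 4286 in dry seed (337 CPM) and 30 in the seedling, and 0 in leaf, root, stem and floral bud.

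Gy3 and Gy7, the neighbours on chromosome 19, were the lowest members at early maturation, in dry seed and in the seedling. Gy3 had 2, 0 and 0 counts in the young seeds, 454 at early maturation (12.9 CPM), 372 in dry seed (29.3 CPM), 9 in the seedling and 1 in root. The other organs had 0. Gy7 had 0 counts in globular and heart seed, 16 at the cotyledon stage, 157 at early maturation (4.45 CPM), 128 in dry seed (10.1 CPM), and 1 each in seedling and root. Both were higher in dry seed than at early maturation on the CPM scale, as Gy2 was.

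**Figure D1:**
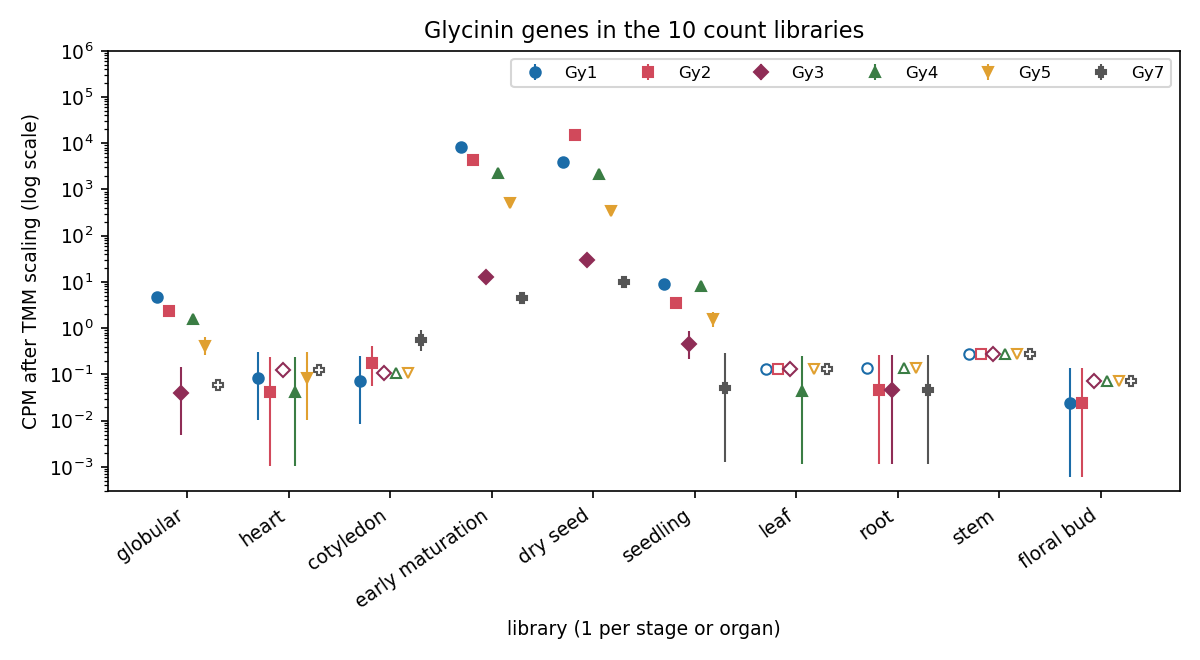
Level of each glycinin gene in the 10 count libraries, in CPM after TMM scaling on a log axis, with exact 95% counting intervals; open symbols mark 0 counts and are drawn at the level of 3 counts in that library. Gy1, Gy2, Gy4 and Gy5 lie at 337 CPM or more at early maturation and in dry seed, Gy3 and Gy7 at 4.45 to 29.3 CPM there, and all members at 9.18 CPM or less elsewhere.

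The cotyledon-stage library differed from the other seed libraries with counts, and from the seedling, in which member held most counts. Leaf, root, stem and floral bud held too few glycinin counts for this comparison. Of its 23 glycinin counts, 16 were Gy7, a share of 69.6% (47.1 to 86.8%), while Gy1 and Gy2 held 2 and 5 and the other members 0. From heart to cotyledon stage Gy7 went from 0 to 16 counts, which is 4.50 times a floor of 3 counts in heart and at least 3.25-fold higher by the exact lower limit. At 0.565 CPM (0.323 to 0.917) it was too low to be called, as a call required at least a 4-fold difference and 10 CPM in the higher library. None of the 6 members reached a mean of 1 CPM over these 2 libraries, the minimum to count as measured, and none was called. Among all 31786 measured gene models 0.547% were called higher and 0.116% lower in this step. The alpha-prime subunit of beta-conglycinin, the other main storage globulin, already had 540 counts (19.1 CPM) at the cotyledon stage, and LE1 had 393 counts.

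From cotyledon stage to early maturation 5 of the 6 members, all measured, were called higher and none lower, against 1.91% of 32326 measured gene models called higher and 1.44% lower. Their median log2 ratio was 13.33, beside 0.01 over all measured gene models, with counts under 3 set to 3. Gy2 rose 24624-fold (10552 to 75839) from 5 counts. Gy3, Gy4 and Gy5 had 0 counts before, and by the exact lower limits Gy5 was at least 3944-fold and Gy3 at least 98.4-fold higher. Against the floor of 3 counts in the cotyledon library these folds were 4850 and 122. Gy7 alone was not called: it stood 7.88 times higher (4.70 to 14.1) but under 10 CPM. Of the 4 seed regulators, 2 were called higher in this step, both homologs of LEC1, a transcription factor subunit needed for embryo maturation. They stood 6.63 times (Glyma07g39820, 6.25 to 7.05) and 8.66 times (Glyma17g00950, 8.21 to 9.13) higher.

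Between early maturation and the dry seed no member was called, against 13.7% of 32161 measured gene models called higher and 17.9% lower. The members nevertheless moved apart. Gy2 stood 3.55 times higher in dry seed (3.52 to 3.57), Gy3 2.27 times (1.98 to 2.61) and Gy7 2.26 times (1.78 to 2.88). Gy1 stood 2.13 times lower (2.11 to 2.15) and Gy5 1.52 times lower (1.47 to 1.58). The log2 ratio of Gy4, -0.10, became 0.07 with DESeq2 size factors and has no direction here. Plain CPM shifted every log2 ratio of this step by the same amount, so that those of Gy2, Gy3 and Gy7 became 1.18, 0.54 and 0.53 and those of Gy1, Gy5 and Gy4 became -1.74, -1.25 and -0.74. The order of the members does not depend on the scaling.

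The alpha-prime subunit of beta-conglycinin had 14616 CPM at early maturation and 4226 CPM in dry seed, and was not called. Of the 4 measured beta-conglycinin genes, 2 were called higher, both beta subunit genes, and 1 lower, the alpha subunit gene Glyma20g28650. LE1 fell 22.8-fold (21.9 to 23.8). ABI3 is an abscisic acid response factor known for its part in storage protein gene expression. Its homolog Glyma18g38490 rose 4.58-fold (4.43 to 4.72), a call that plain CPM ends (162 and 473 CPM), and Glyma08g47240 stood 1.20 times lower (1.15 to 1.25). Both LEC1 homologs fell, to 3 and 5 counts in dry seed.

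**Figure D2:**
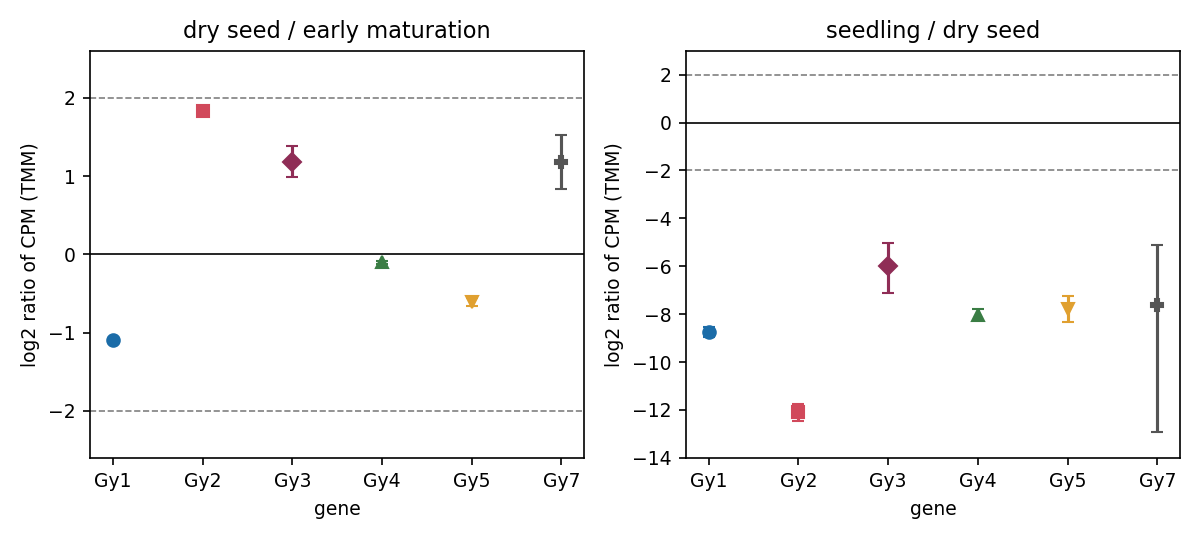
Log2 ratio of CPM (TMM) of each glycinin gene between early-maturation and dry seed (left) and between dry seed and seedling (right), with exact 95% counting intervals; dashed lines mark 4-fold. Gy2, Gy3 and Gy7 lie above 0 and Gy1 and Gy5 below 0 on the left, all within 4-fold, and on the right all 6 lie at -5.98 (Gy3) or lower, with Gy2 lowest at -12.08.

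Shares within the family need no scaling between libraries. At early maturation Gy1 held 53.8% of the glycinin counts (53.7 to 54.0%), Gy2 27.9% (27.8 to 28.0%), Gy4 14.9% (14.8 to 15.0%) and Gy5 3.30% (3.25 to 3.34%), while Gy3 held 0.0826% and Gy7 0.0286%. In the dry seed Gy2 held 70.4% (70.3 to 70.6%), Gy1 17.98% (17.8 to 18.1%), Gy4 9.88% (9.77 to 9.99%) and Gy5 1.54% (1.50 to 1.59%), with Gy3 at 0.134% and Gy7 at 0.0460%. Gy1 was thus the leading member in the first library and Gy2 in the second. As a sum, in which reads swapped among them do not matter, Gy1, Gy2 and Gy3 held 81.8% and 88.5% of the family's counts in these 2 libraries. Reads that were dropped or counted more than once would still affect this sum. It also depends on gene length, with the lengths of Gy1 and Gy2 given below. Per length the sum was 92.2% and 93.8% with the smaller lengths, and 81.3% and 87.0% with the larger.

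The ratio of Gy2 to Gy1 states the exchange in 1 number. It was 0.518 counts of Gy2 per count of Gy1 at early maturation (0.515 to 0.522) and 3.92 in dry seed (3.88 to 3.96), a change of 7.56-fold that depends neither on scaling nor on gene length. In the RPKM batch the ratio was 1.20 at mid maturation and 6.04 at late maturation, a change of 5.06-fold in the same direction. These are separate libraries of a separate batch, and each comparison stays within libraries deposited in the same unit. Whether those libraries were prepared or run together was not tested. The ratio of Gy3 to Gy1 was also higher in the later library of each batch, 4.85-fold in dry seed against early maturation and 3.91-fold at late against mid maturation. The ratio of Gy4 to Gy1 did not keep its direction: it was 1.99 times higher in dry seed than at early maturation, and 1.72 times lower at late than at mid maturation (0.660 against 1.13).

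The group II members were compared in the same way. There were 0.222 counts of Gy5 per count of Gy4 at early maturation (0.218 to 0.225), 0.156 in dry seed (0.151 to 0.161) and 0.185 in the seedling (0.121 to 0.275). On the RPKM scale the ratio was 0.571 at mid and 0.635 at late maturation. Counts and RPKM are different units here, and the change within each batch was 1.42-fold downward and 1.11-fold upward. The ratio of Gy5 to Gy1 changed 1.40-fold upward in dry seed and 1.55-fold downward at late maturation against mid maturation. The ratio of Gy7 to Gy3 was 0.346 at early maturation (0.287 to 0.416) and 0.344 in dry seed (0.279 to 0.422), but 0.0684 at mid and 0.816 at late maturation on the RPKM scale.

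**Figure D3:**
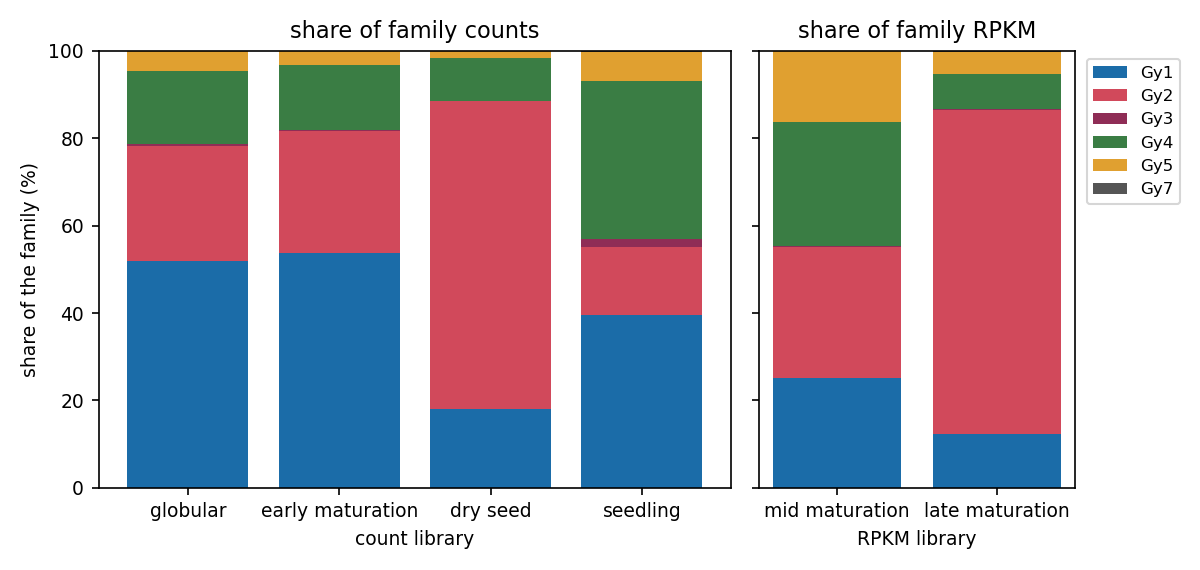
Share of each glycinin gene in the family, in percent of the family's counts for 4 count libraries (left) and in percent of the family's RPKM for the mid- and late-maturation libraries (right). Gy1 leads in globular and early-maturation seed and Gy2 in dry seed (70.4%) and at late maturation (74.1%), while in the seedling Gy1 (39.6%) and Gy4 (36.1%) are within counting error of each other; the left panel is not corrected for gene length and the right panel is.

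At mid maturation the glycinins were among the most abundant transcripts of the library on the RPKM scale. Gy2 ranked 2 of 41927 listed genes with 32999 RPKM, Gy4 ranked 3 with 31302, Gy1 ranked 4 with 27614 and Gy5 ranked 9 with 17880 RPKM. Gy3 stood at 125 RPKM and Gy7 at 8.57 RPKM. Their shares of the family's RPKM were 30.02% (Gy2), 28.5% (Gy4), 25.1% (Gy1), 16.3% (Gy5), 0.114% (Gy3) and 0.00780% (Gy7).

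At late maturation Gy2 still had 3976 RPKM and rank 19, whereas Gy1 had 658 RPKM, Gy4 434, Gy5 276, Gy3 11.7 and Gy7 9.52. The family's summed RPKM was 20.5 times lower than at mid maturation. Gy4 stood 72.1 times lower (71.6 to 72.5), Gy5 64.9 times (64.3 to 65.5), Gy1 42.0 times (41.6 to 42.4), Gy3 10.7 times (10.3 to 11.2) and Gy2 8.30 times (8.27 to 8.33). These intervals rest on whole reads recovered from the RPKM values, with the smallest read numbers that suit them. They do not cover the scaling between the mid- and late-maturation libraries. The shares became 74.1% for Gy2, 12.3% for Gy1, 8.10% for Gy4, 5.14% for Gy5, 0.217% for Gy3 and 0.177% for Gy7.

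On the scale of log2(RPKM + 0.5), which understates the change of low genes, 5 of the 6 members, all measured, were called lower at late maturation at a threshold of 4-fold and 5 RPKM in the higher library. The background was 7.35% lower and 10.9% higher of 26234 measured genes. The median log2 ratio of the members was -4.38, beside 0.35 over all measured genes. Gy7 was the exception, with 8.57 and 9.52 RPKM, 1.11 times higher at late maturation (1.02 to 1.21). After rescaling by the median ratio of the 20068 genes at 1 RPKM or more in both libraries, 1.45, it stood lower instead (log2 ratio -0.36). Its direction thus depends on the scaling. The same rescaling made the falls of the other members larger. Their log2 ratios went from -6.17 to -6.70 (Gy4), -6.02 to -6.55 (Gy5) and -5.39 to -5.92 (Gy1). Those of Gy3 and Gy2 went from -3.37 to -3.88 and from -3.05 to -3.59. Of the companion genes, all 3 listed beta-conglycinin genes, LE1, both LEC1 homologs and KTI3, which encodes the Kunitz trypsin inhibitor of the seed, fell in this step. LE1 fell 101-fold (99.6 to 103) and KTI3 293-fold (287 to 300), both more than any glycinin gene. Neither ABI3 homolog was called: Glyma08g47240 stood at 146 RPKM and then 117, and Glyma18g38490 at 95.2 and then 167.

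**Figure D4:**
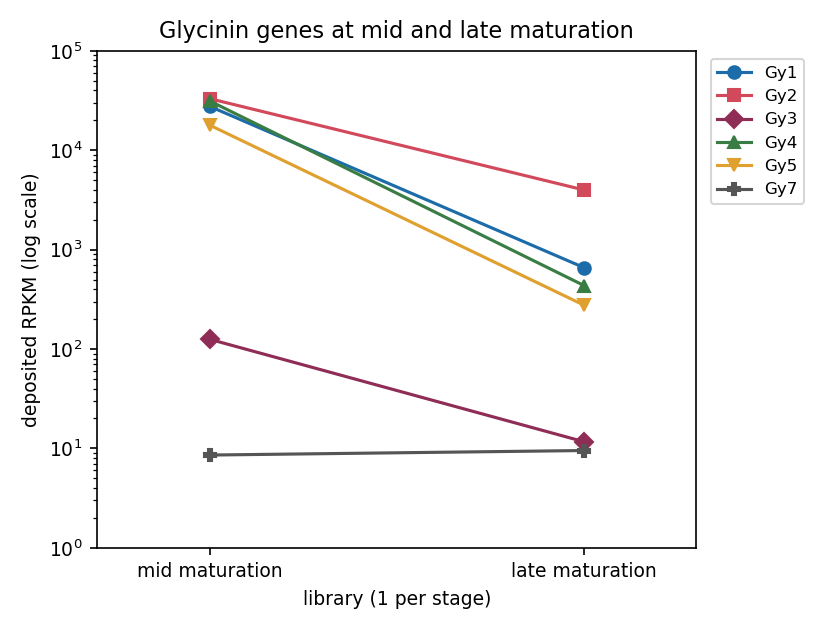
Deposited RPKM of each glycinin gene at mid and late maturation on a log axis, 1 library each, with lines joining the values of a gene. Gy1, Gy2, Gy4 and Gy5 start between 17880 and 32999 RPKM and spread to between 276 and 3976 RPKM, Gy2 staying highest, while Gy7 goes from 8.57 to 9.52 RPKM.

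Levels of different members can be compared in the count libraries only with gene lengths, which had to be recovered from the RPKM values and belong to the gene models of that batch. The smallest lengths at which both libraries gave whole reads were 1769 nt for Gy3, 1987 nt for Gy4, 1588 nt for Gy5 and 1702 nt for Gy7. For Gy1 and Gy2 they were 604 and 1173 nt, and the true lengths may be whole multiples of these, which give whole reads just as well. The smallest multiples no shorter than the shortest of the other 4 members were taken as an alternative, 1812 nt for Gy1 and 2346 nt for Gy2. The level of Gy1 per length at early maturation was then 12817 RPKM with the smaller and 4272 with the larger length. The per-length share of Gy1 at early maturation was 72.7% or 58.0%, and that of Gy2 in dry seed 62.6% or 65.3%, so the same member led under both.

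For Gy3 and Gy7 the RPKM computed from counts can be set beside the deposited values. Gy3 had 6.72 RPKM at early maturation, 125 at mid, 11.7 at late maturation and 9.78 in dry seed. Gy7 had 2.41, 8.57, 9.52 and 3.50 RPKM in the same order, a narrower range than that of any other member. Gy4 went from 1076 to 31302, 434 and 643 RPKM, and Gy5 from 299 to 17880, 276 and 125 RPKM. Every member but Gy7 was highest in the mid-maturation library, under both lengths of Gy1 and Gy2. The steps from early to mid maturation and from late maturation to dry seed cross the batches.

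From dry seed to the seedling all 6 members, all measured, were called lower, against 13.0% of 33740 measured gene models called lower and 18.2% higher. Their median log2 ratio was -7.89, beside 0.41 over all measured gene models. The depth of the fall differed between members. Gy2 fell 4331-fold (3422 to 5567), Gy1 429-fold (370 to 499), Gy4 259-fold (222 to 304) and Gy5 218-fold (152 to 324). Gy3 fell 63.1-fold (32.9 to 139), the smallest fall of the members with more than 3 counts in the seedling. Gy7 fell from 128 counts to 1, a ratio of 195 (34.4 to 7774), and with plain CPM, where it stayed under 10 CPM in dry seed, it was no longer called. Plain CPM made the falls smaller: the log2 ratio went from -12.08 to -11.26 for Gy2, from -8.74 to -7.92 for Gy1, from -8.02 to -7.19 for Gy4, from -7.77 to -6.95 for Gy5 and from -5.98 to -5.16 for Gy3.

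The seedling's glycinin reads accordingly had another makeup than those of the dry seed. Of the 449 counts, Gy1 held 39.6% (35.1 to 44.3%), Gy4 36.1% (31.6 to 40.7%), Gy2 15.4% (12.2 to 19.0%), Gy5 6.68% (4.55 to 9.40%), Gy3 2.00% (0.921 to 3.77%) and Gy7 0.223% (0.00564 to 1.23%). The share of Gy2 was 70.4% in the dry seed and that of Gy4 9.88%, both far outside these intervals. There were 0.910 counts of Gy4 per count of Gy1 (0.731 to 1.13), so which of these led by counts was not detectable at this depth. These shares are not corrected for gene length. Per length, Gy1 held 64.1% and Gy4 17.7% with the smaller lengths of Gy1 and Gy2. With the larger lengths they held 42.0% and 34.9%. The ratio of Gy2 to Gy1 was 0.388 (0.289 to 0.515), 10.1 times lower than in dry seed. Of the companion genes, all 3 measured beta-conglycinin genes, LE1 and both measured ABI3 homologs were called lower too. The alpha-prime subunit had 198 counts left, or 10.2 CPM, a level near that of Gy1 at 9.18 CPM.

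The globular library held more glycinin counts than the heart and cotyledon libraries, though its seeds were the smallest. Gy1 stood 56.8 times (15.6 to 472) and Gy2 57.5 times (10.1 to 2291) lower in heart than in globular seed, both under the minimum of 10 CPM, so that none of the 2 measured members was called. The background of this step was 1.42% of 31679 measured gene models called higher and 0.808% lower. The members' shares in globular seed were 51.9% for Gy1 (47.2 to 56.5%), 26.3% for Gy2 (22.3 to 30.5%), 16.8% for Gy4 (13.5 to 20.6%), 4.60% for Gy5 (2.87 to 6.94%) and 0.438% for Gy3 (0.0530 to 1.57%). Gy7 had 0 of 457 counts, which allows a share of up to 0.656% by the limit of 3 counts and 0.804% by the exact upper limit. The early-maturation shares of all 6 members lay within these limits, and the dry-seed shares of Gy1, Gy2, Gy4 and Gy5 lay outside.

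For each 10000 CPM at early maturation, Gy1 had 5.67 CPM in globular seed (4.97 to 6.44), Gy2 5.54 (4.59 to 6.63), Gy4 6.67 (5.27 to 8.34) and Gy5 8.20 (5.08 to 12.5). Other gene models above 200 CPM at early maturation and at or under 0.5 CPM in heart numbered 27. Their median on this measure was 6.04, with quartiles of 5.23 and 7.20 and a range of 3.00 to 30.8. The values of these 4 glycinin genes lay within that range, and those of Gy1, Gy2 and Gy4 between its quartiles. Gy3 and Gy7 were under the limit of 200 CPM. Gy3 stood at 31.2 (3.76 to 113) from 2 counts, just above that range, and Gy7 had 0 counts in globular seed. LE1, at 6.27, is 1 of the 27. What part material from other libraries had in the globular counts was not tested.

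**Figure D5:**
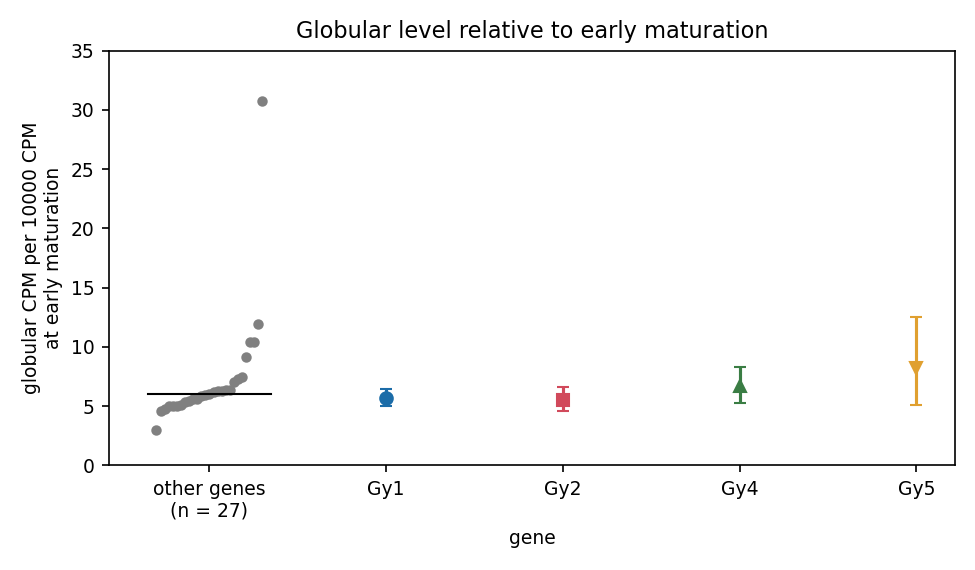
Globular CPM for each 10000 CPM at early maturation, for 27 other gene models that were above 200 CPM at early maturation and at or under 0.5 CPM in heart (grey points in rising order, line at the median of 6.04) and for Gy1, Gy2, Gy4 and Gy5 with exact 95% counting intervals. The 4 glycinin genes lie between 5.54 and 8.20, inside the range of the other genes.

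Across the 10 count libraries the members' profiles of log2(CPM + 1) were much alike, with Pearson r of 0.997 between Gy1 and Gy4, 0.987 between Gy1 and Gy2 and 0.993 between Gy2 and Gy3. Gy7 was the least like Gy1 (r = 0.925). These values describe 10 libraries in which 2 high points, early maturation and dry seed, carry most of the variation, and close copies may share reads. Among the companion genes that reached 10 CPM in some count library, the alpha-prime subunit was closest to Gy1 (r = 0.968). Among all gene models that reached 10 CPM in some library, those most like Gy1 outside the family were Glyma13g42320 (r = 0.981) and Glyma01g10900 (r = 0.980), and those most like Gy2 were Glyma12g34160 (r = 0.997) and Glyma02g26860 (r = 0.991). Glyma01g10900 stood at 438 CPM at early maturation and 114 in dry seed, and Glyma13g42320 had 655 and 558 CPM. Glyma12g34160 had 312 and 701 CPM and Glyma02g26860 366 and 770 CPM. Glyma12g34160 was also the closest gene model outside the family to Gy3 (r = 0.997), Gy4 (r = 0.987) and Gy5 (r = 0.993), so it marks no single member. These genes were chosen by their likeness over the same libraries, and their levels are a description.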

How the data were processed

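Poly(A)-selected RNA was sequenced as single-end reads on a Genome Analyzer IIx, with a HiSeq also named for mid and late maturation, per the labels' protocols. For 10 libraries the authors deposited raw counts of mapped reads per gene model, and for mid and late maturation RPKM of genes above 0 only, per the file headers. The submitters' processing notes name Bowtie, and for the RPKM libraries also bedtools. Their versions and the genome build are not stated, so coordinates are left out. No sequences were used here.

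Counts were scaled with TMM (edgeR 4.0.16, R 4.3.3), with plain CPM and DESeq2 1.42.0 size factors as alternatives. A gene was measured at a mean of at least 1 CPM or 1 RPKM over both libraries. It was called at 4-fold and 10 CPM, counts under 3 set to 3, or at 4-fold and 5 RPKM with a pseudocount of 0.5. Shares and ratios carry exact (Clopper-Pearson) and levels exact Poisson 95% intervals, which hold no amplification error, as PCR copies are not separate molecules. Depths of 59.5 (mid) and 104 (late) mega-reads were recovered from the lowest 300 RPKM values, of which 97.7% and 98.3% were 1 read of a whole-number length within 0.05. Member reads were whole within 0.001. Scripts (Python 3.11.15, scipy 1.17.1) were tested on simulated data.

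The members, the companion genes (5 beta-conglycinin genes, LE1, KTI3 and homologs of LEC1 and ABI3) and the call rules were chosen with earlier results of these data known. Gene names are published locus assignments not checked against sequence. Also named are the 2 gene models most like Gy1 and the 2 most like Gy2 by Pearson r.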

Additional observations from a re-analysis of the deposited data

How the results depend on the processing

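The counts of members called in each step were the same under plain CPM, DESeq2 size factors and a floor of 1 count, except that plain CPM gave 5 in place of 6 members lower from dry seed to seedling. Without the minimum level, 3 members were lower from globular to heart and 1 higher from heart to cotyledon, in place of 0, and 6 in place of 5 rose into early maturation. At a 2-fold threshold, 3 members were higher and 1 lower in dry seed than at early maturation, in place of 0. Mid to late maturation gave 5 lower members under every pseudocount, without the minimum and after rescaling. Without the minimum, the shares called in the count libraries are over all 66210 gene models, and otherwise over the measured ones. The share called went from 2.23% to 5.34% (globular to heart) and from 0.664% to 1.79% (heart to cotyledon) without the minimum. At 2-fold it was 8.91% and 3.28%. It went from 3.35% to 4.96% into early maturation without the minimum and to 13.1% at 2-fold. At 2-fold it also went from 31.7% to 48.1% into dry seed and from 31.2% to 47.4% into the seedling. Without the minimum it was lower in both of these steps, at 27.4% and 29.3%. From mid to late maturation it was 18.3%, against 24.0% without the minimum and 15.5% after rescaling.

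Shares moved with length. The leading member was the same per length and by counts at early maturation and in dry seed, but not at mid maturation. Per length, with the smallest and then the multiplied lengths (chosen after seeing the data), Gy1 held 72.7% and 58.0% at early maturation and 31.1% and 21.6% in dry seed, and Gy2 held 19.4% and 23.2% and then 62.6% and 65.3%. In globular seed Gy1 held 71.6% and 55.6% per length. As a share of reads Gy2 held 26.5% and 35.5% at mid and 72.9% and 78.7% at late maturation. With the smallest lengths Gy4 led the reads at mid maturation, at 42.5%, where Gy2 led by RPKM and with the multiplied lengths. The median globular level of other genes was 5.76 in place of 6.04 with limits of 50 and 0.1 CPM. The coding-length alternative was not run, because no sequences were used here. No paired analysis was possible because each group has 1 library. Leaf, root, stem and floral bud held too few glycinin counts for shares.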
